A study of Mus musculus with 8 samples.

Results

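The miRNAs miR-297, miR-466, miR-467 and miR-669 form a large family of related mouse small RNAs, most of them encoded as tandem hairpins inside an intron of the Polycomb gene Sfmbt2. Members were all listed miRNAs whose name begins with one of these 4 stems followed by a letter or a hyphen. They numbered 80 of the 1978 miRNAs listed in either fluid, of which 6 were miR-297, 31 miR-466, 13 miR-467 and 30 miR-669. Of these, 79 were listed in plasma and 69 in CSF, with 68 in both, 11 in plasma alone and 1, miR-297c-5p, in CSF alone. Exosomes, the vesicles that cells release into body fluids, came from plasma and from cerebrospinal fluid (CSF) of wild-type adult mice of both sexes. The mice were either untreated (baseline) or given DOCA-salt, deoxycorticosterone acetate with salt, a model of hypertension. For each fluid, each sex contributed 1 baseline and 1 DOCA-salt library, giving 4 of plasma and 4 of CSF, all labelled batch 1. The labels do not say which mouse or pool of mice gave a library, so p-values measure the spread between unlike libraries and not between mice of one combination.

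A miRNA hairpin is cut by Drosha and Dicer into a duplex, and either arm, named 5p or 3p, can be loaded into an Argonaute protein. Bases 2 to 8 of the loaded arm, the seed, pair with target mRNAs. The Sfmbt2 cluster arose by repeated duplication in rodents, is expressed from the paternal allele and is known for its role in the mouse placenta, and many of its products are runs of alternating U and G or of A and C.

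Mature sequences from RefSeq (GRCm38.p6) were found for 8 members, and they are shown because they display the repeat character of these members. All 8 lie outside Sfmbt2, so seeds among the members of the Sfmbt2 intron were not compared. Each is written 5′ to 3′ with the seed in capitals.
miR-466i-3p: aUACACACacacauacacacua
miR-466q: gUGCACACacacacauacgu
miR-467f: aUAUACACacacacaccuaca
miR-467g: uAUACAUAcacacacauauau
miR-466j: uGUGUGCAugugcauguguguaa
miR-466k: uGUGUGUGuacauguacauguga
miR-467h: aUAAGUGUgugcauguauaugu
miR-669n: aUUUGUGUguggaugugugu
The 8 seeds were all different. miR-466i-3p and miR-467f were A or C at 86.4% and 85.7% of their bases, and miR-669n was U or G at 90.0%. A search of the mature strand alone for 5 consecutive UG units or 5 consecutive AC units found a match in 5 of 1679 mature miRNAs of that table, or 0.298%. Most members have no sequence in that table, so this share does not describe the whole family. The members among them were miR-466i-3p, miR-466q and miR-467f. The other two were miR-574-5p and miR-1187, which stand outside the name rule.
miR-574-5p: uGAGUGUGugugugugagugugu
miR-1187: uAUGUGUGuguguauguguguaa

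The family label names Sfmbt2, and 70 of the 80 members lay inside a single Sfmbt2 intron by their deposited coordinates (GRCm38/mm10, GENCODE M21). That intron spans chromosome 2 from 10461473 to 10523944, 62472 bp, and is intron 10 or 11 of the gene, depending on the transcript. The other 10 lay elsewhere, among them miR-466i-5p, the member proposed as the marker of the family. miR-466i-5p (chromosome 13, 17747525 to 17747544, plus strand) lies in an intron of the cyclin-dependent kinase gene Cdk13, on the strand opposite to that gene, as does its partner arm miR-466i-3p (17747552 to 17747573). miR-467f lay opposite to Fxr2 on chromosome 11, miR-467g opposite to Grk4 on chromosome 5 and miR-669n opposite to Slc30a7 on chromosome 3, while miR-466q lay in an intron of Tnik on the same strand as that gene. The remaining 4 were miR-466f, miR-466j, miR-466k and miR-467h. Intronic members in Sfmbt2 held 83.9% ± 7.11 of member counts in plasma and 78.6% ± 7.76 in CSF (SD, n = 4 libraries each). The annotation holds 81 genes of the 4 names, 71 of them in Sfmbt2, with 12 copies named Mir669a, 10 named Mir467a and 8 named Mir466b. A read from such a copy cannot be assigned to one locus by its sequence, and the deposited coordinates give a place for each name, not the source of each molecule.

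**Figure D1:**
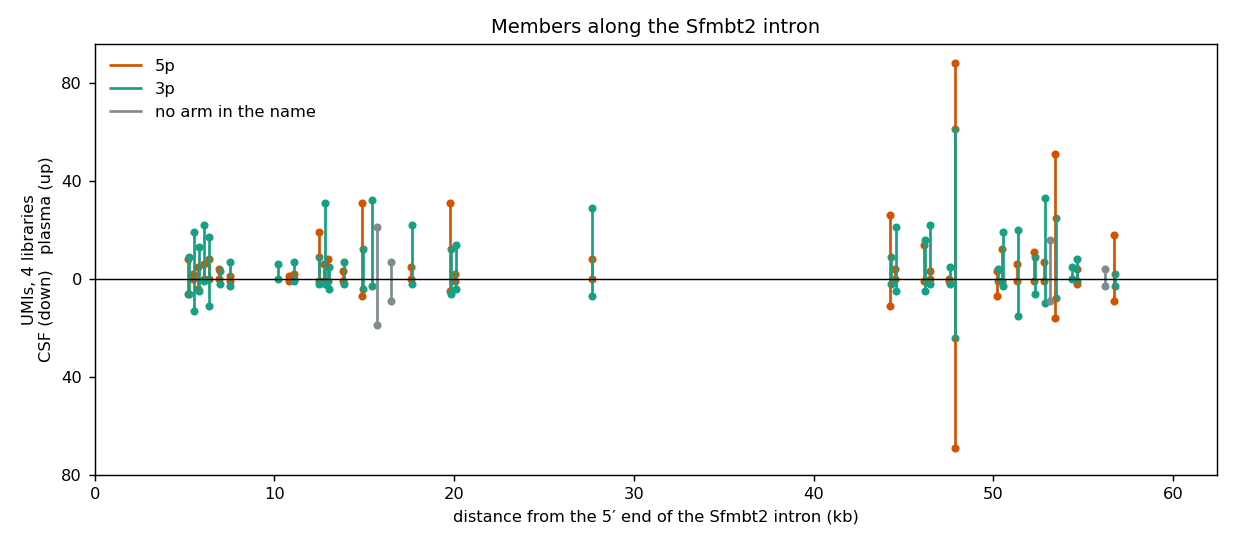
Members inside the Sfmbt2 intron, by distance in kb from its 5′ end. Each stem is 1 member, with molecules summed over 4 plasma libraries upward and over 4 CSF libraries downward, and colour gives the arm. The highest stems are miR-669c-5p and miR-669c-3p, with 88 and 61 molecules in plasma.

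Counts are of unique molecular identifiers (UMIs), so that a count of 1 stands for 1 tagged molecule. The libraries held 158572 to 337240 UMIs in plasma and 237878 to 1082504 in CSF. All members together had 314 UMIs in baseline and 268 in DOCA-salt plasma of females, and 254 and 335 in those of males. In CSF they had 80, 92, 102 and 169 in the same order. The family was therefore a rare component of both fluids, at 0.112%, 0.0795%, 0.160% and 0.110% of plasma UMIs and 0.0336%, 0.0303%, 0.0135% and 0.0156% of CSF UMIs. The lowest plasma share, 0.0795% (95% exact Clopper-Pearson interval 0.0702% to 0.0896%), stood above the highest CSF share, 0.0336% (0.0267% to 0.0419%). Intervals cover counting error only.

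Plasma averaged 0.115% ± 0.0334 and CSF 0.0233% ± 0.0102 (SD, n = 4), or 4.96-fold more in plasma on the scale of CPM, UMIs scaled to the library total. The size of that difference depended on the scale. CSF libraries held 45.2% ± 9.45 of their UMIs in a striated muscle list (miR-1a-3p, miR-133a-3p, miR-133b-3p and miR-206-3p), against 0.749% ± 0.522 in plasma. With the muscle list left out of the totals, the shares were 0.116% ± 0.0332 and 0.0411% ± 0.0121, or 2.83-fold. With library scaling by the trimmed mean of M-values (TMM), the summed level was 652 ± 102 in plasma and 385 ± 30.9 in CSF, or 1.69-fold. The 4 plasma values were above the 4 CSF values on all 3 scales. An erythrocyte list of 4 miRNAs took 12.6% ± 2.95 of plasma and 2.99% ± 1.3 of CSF UMIs, a leukocyte and platelet list of 3 took 2.73% ± 0.147 and 0.442% ± 0.0774, and a neuron list of 4 took 0.188% ± 0.0686 and 0.247% ± 0.0562. The part of these cell types in the differences was not tested. Less RNA of the family per vesicle and fewer vesicles that carry it cannot be told apart in these bulk samples.

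**Figure D2:**
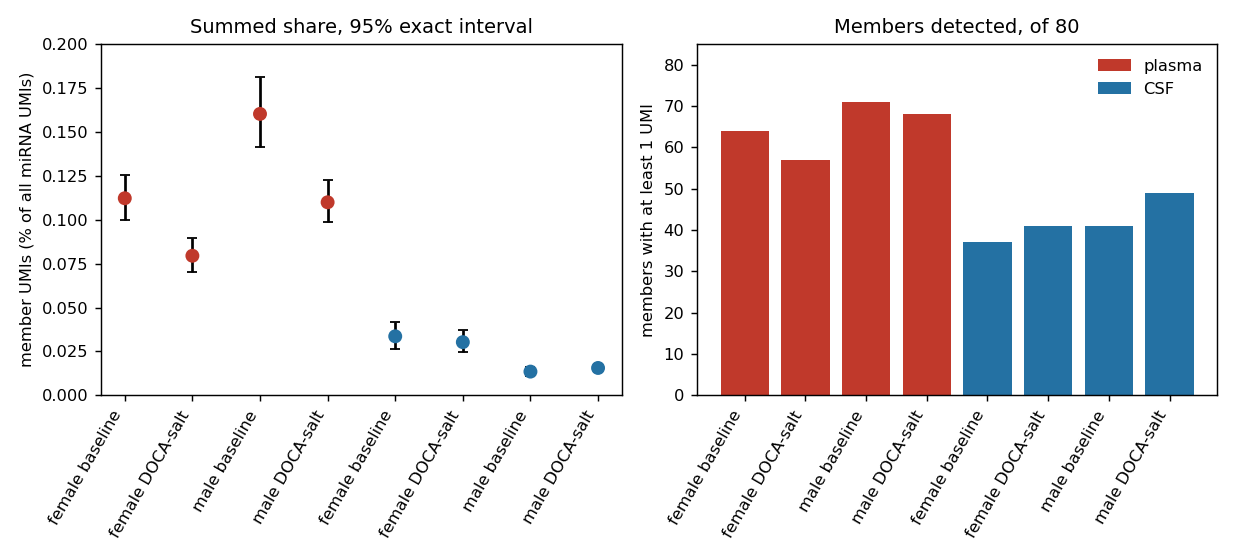
Summed share of member UMIs (percent of all miRNA UMIs, points with 95% exact intervals) and number of the 80 members with at least 1 UMI (bars), for each of the 8 libraries. Plasma libraries lie at 0.0795% to 0.160% and CSF libraries at 0.0135% to 0.0336%, and plasma libraries hold 57 to 71 members against 37 to 49 in CSF.

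Most members were at the edge of detection. The median member had 9 UMIs summed over the 4 plasma libraries, where the median of all miRNAs was 63, and 3 UMIs over the 4 CSF libraries, where it was 35. In plasma 12 of 79 members, or 15.2%, had at most 3 UMIs in all, against 1.01% of all listed miRNAs. In CSF this held for 35 of 69, or 50.7%, against 4.95%. At least 10 UMIs were reached by 36 members in plasma and 11 in CSF. A UMI was present in every library of the fluid for 46 members in plasma and 18 in CSF. The miR-297 members were the rarest, with 18 UMIs in plasma and 12 in CSF for the whole stem, and at most 7 for any one of them in a fluid. The miR-466 members held 40.6% ± 5.11 of member UMIs in plasma and 37.3% ± 5.77 in CSF, and the miR-669 members 40.1% ± 2.87 and 45.7% ± 10.2. miR-467 members held 17.9% ± 4.16 and 13.9% ± 5.99.

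A few members stood above the rest in both fluids. miR-669c-5p (chromosome 2, 10509319 to 10509340, plus strand, Sfmbt2 intron) had 27, 20, 17 and 24 UMIs in plasma, in the order baseline female, DOCA-salt female, baseline male and DOCA-salt male, which is kept below. In CSF it had 6, 11, 9 and 43. It was detected in all 8 libraries, and its highest count came from the DOCA-salt male of CSF, the deepest library. Its level was 85.4 ± 21.0 CPM in plasma and 28.3 ± 12.5 CPM in CSF (SD, n = 4). miR-466i-5p had 66, 11, 7 and 7 UMIs in plasma and 9, 10, 19 and 5 in CSF, or 83.9 ± 102 and 25.2 ± 14.6 CPM. The plasma SD exceeded the mean because the baseline female, at 236 CPM, stood far above the other 3, at 23.0 to 44.1 CPM. In plasma miR-669c-5p and miR-466i-5p did not differ in summed UMIs beyond that spread, at 88 and 91.

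The partner arm miR-669c-3p had 19, 8, 7 and 27 UMIs in plasma and 3, 5, 6 and 10 in CSF, with the plasma libraries above the CSF libraries in CPM. miR-466h-5p (chromosome 2, 10514901 to 10514922) had 14, 8, 14 and 15 in plasma and 5, 3, 0 and 8 in CSF. In CPM its lowest plasma value, 23.7, stood above its highest CSF value, 21.0. With TMM scaling the fluids overlapped for both miR-669c-3p and miR-466h-5p. The next in plasma were miR-669o-3p with 33 UMIs over 4 libraries, miR-669a-3p with 32, miR-466b-3p, miR-467a-5p and miR-467b-5p with 31 each, miR-669p-3p with 29, miR-467e-5p with 26 and miR-466h-3p with 25. These 8 did not separate beyond counting error. The next in CSF were miR-669g with 19, miR-669m-3p with 15, miR-466i-3p with 14, miR-466f-3p with 13, miR-467e-5p and miR-669b-3p with 11, miR-669o-3p with 10 and miR-466g with 9.

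**Figure D3:**
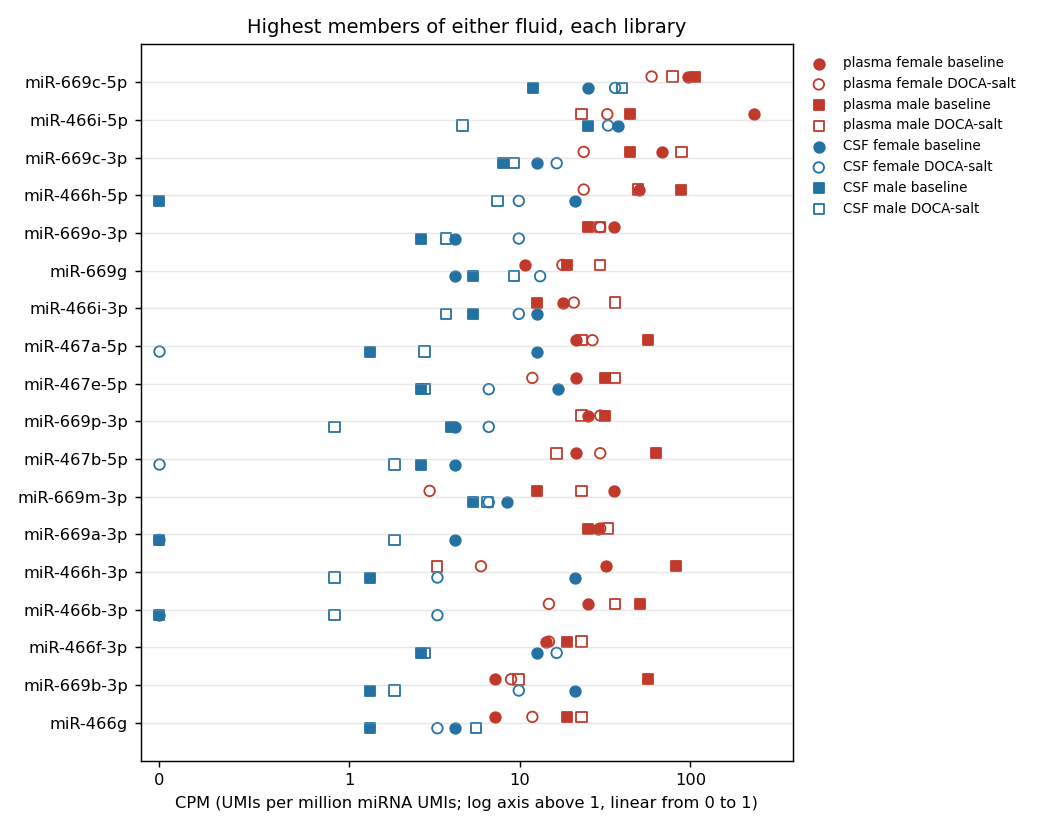
Level of each of the highest members of either fluid in the 8 libraries (CPM, logarithmic above 1 and linear from 0 to 1, 1 point per library). miR-466i-5p in the baseline female plasma, at 236 CPM, lies apart from every other point, and most plasma points lie to the right of the CSF points.

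The fluids were compared over 8 libraries with edgeR's quasi-likelihood test and Benjamini-Hochberg adjustment over all miRNAs, at a threshold of 0.05. Among all 1146 miRNAs that passed the low-count filter 51.7% were called, and 2 members passed that filter, with 0 called. miR-466i-5p had a log2 fold change of -0.33 ± 0.63 (SE, CSF over plasma, adjusted p = 0.693) and miR-669c-5p one of 0.20 ± 0.40 (adjusted p = 0.706), and neither had an unadjusted p under 0.05. With DESeq2's test the count was also 0. Both values depended on scaling. With total-count scaling, which moved the median of all miRNAs from -0.12 to -1.72, they stood at -1.88 (adjusted p = 0.0197) and -1.60 (adjusted p = 0.00893), beside 64% of all miRNAs called lower there. Both lay close to that median. Without the baseline female of plasma miR-466i-5p stood at 1.05 (adjusted p = 0.107).

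The remaining 66 members listed in both fluids had too few counts for that filter. Without it, 7 of 68 were called lower in CSF and 0 higher, where 16.6% of all miRNAs were called lower and 16.4% higher. These were miR-669e-3p (-3.27 ± 1.10, adjusted p = 0.0251), miR-467c-5p (-3.16 ± 0.99, adjusted p = 0.0163), miR-466b-3p (-3.06 ± 0.81, adjusted p = 0.00516), miR-669a-3p (-2.58 ± 0.76, adjusted p = 0.0109), miR-466e-3p (-2.58), miR-466a-3p (-2.57) and miR-467b-5p (-1.94). miR-669a-3p had 29.1 ± 3.13 CPM in plasma and 1.51 ± 1.99 CPM in CSF. miR-467c-5p had 4, 7, 3 and 5 UMIs in plasma and 1 UMI in the 4 CSF libraries together. The median log2 fold change of the 68 was -0.77, beside -0.21 over all miRNAs, and 20 of the 68 were positive. By mean CPM with TMM scaling, 49 of 68 members, or 72.1%, were higher in plasma, where 56.5% of all shared miRNAs were. In CPM, 24 of 68 had all 4 plasma libraries above all 4 CSF libraries, where 48% of all miRNAs did. With TMM scaling this held for 8 of 68, where it held for 15.6% of all. The share of members with all plasma libraries above all CSF libraries was below that of all miRNAs on both scales.

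Of the repeat miRNAs outside the name rule, miR-574-5p, whose sequence printed above carries the UG motif, had 141, 220, 39 and 240 UMIs in plasma and 12, 18, 21 and 27 in CSF, with no overlap of the fluids. Over 4 libraries it had more UMIs than any member in plasma, while in the DOCA-salt male of CSF miR-669c-5p was higher, at 43 against 27. It was lower in CSF by edgeR (log2 fold change -2.26 ± 0.42, adjusted p = 0.000195). miR-1187 had 0, 1, 1 and 2 in plasma and 3, 0, 2 and 2 in CSF.

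Counts of the 5p and 3p arms were compared within the family. Members named 5p made up 54.9%, 46.1%, 46.7% and 38.5% of the UMIs of arm-named members in plasma and 50%, 44.9%, 52.9% and 56.0% in CSF. The fluids overlapped, at 46.6% ± 6.71 and 50.9% ± 4.72 (SD, n = 4). All other arm-named miRNAs were 70.8% ± 2.21 5p in plasma and 36.3% ± 3.68 in CSF, so the members lay below the rest in every plasma library and above it in every CSF library. The CSF order turned with the striated muscle list, whose 4 miRNAs are 3p arms. With that list left out, the other miRNAs were 71.4% ± 2.13 5p in plasma and 70.3% ± 6.41 in CSF, and the members lay below them in all 8 libraries. A single member also moved the shares of the family. Without miR-466i-5p the 5p share was 41.8% ± 3.45 in plasma and 43.4% ± 7.66 in CSF, and in the DOCA-salt female of CSF it was 36.8%, beside 37.4% for all other miRNAs there.

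Within hairpins some names were led by the 5p arm and more by the 3p arm. Of 33 hairpins with both arms listed, the 3p arm had more UMIs over all 8 libraries in 24 and the 5p arm in 9. The exact 95% interval of the 5p to 3p ratio lay wholly below 1 for 13 and wholly above 1 for 7. These intervals pool molecules over 8 unlike libraries, so they cover counting error and not the spread between libraries. The same counts over hairpins of other miRNAs were not made. The 5p arm led in miR-669c, with 157 against 85 UMIs (ratio 1.85, 1.41 to 2.43), and in miR-466i, with 134 against 39 (3.44, 2.39 to 5.04). Both led in 7 of 8 libraries. Of the 134 UMIs of miR-466i-5p, 66 came from the baseline female of plasma, where the 3p arm had 5, so the pooled ratio leans on that library. In the DOCA-salt male of plasma the 3p arm of miR-466i was higher, at 11 against 7. In CSF its arms had 43 and 14 (3.07, 1.65 to 6.08). It also led in miR-466h with 67 against 33 (2.03, 1.32 to 3.18), in miR-467a with 38 against 16 and in miR-467b with 36 against 18. The lead in miR-467b came from plasma, with 31 against 12, while in CSF the arms had 5 and 6 and the 3p arm was higher in 3 of 4 libraries. The 3p arm led in miR-669o, with 43 against 8 UMIs (5p to 3p ratio 0.186, 0.0756 to 0.400), in 7 of 8 libraries and with the other library tied. Arms of hairpins with several genomic copies sum over those copies.

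Among other hairpins the 3p arm led in all 8 libraries for miR-669p, with 36 against 8, and for miR-466f, with 32 against 2. In miR-467d the arms, 15 and 21, did not differ beyond counting error. In the fluids taken alone the direction was alike for miR-669c, with ratios of 1.44 (1.03 to 2.03) in plasma and 2.88 (1.78 to 4.79) in CSF.

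**Figure D4:**
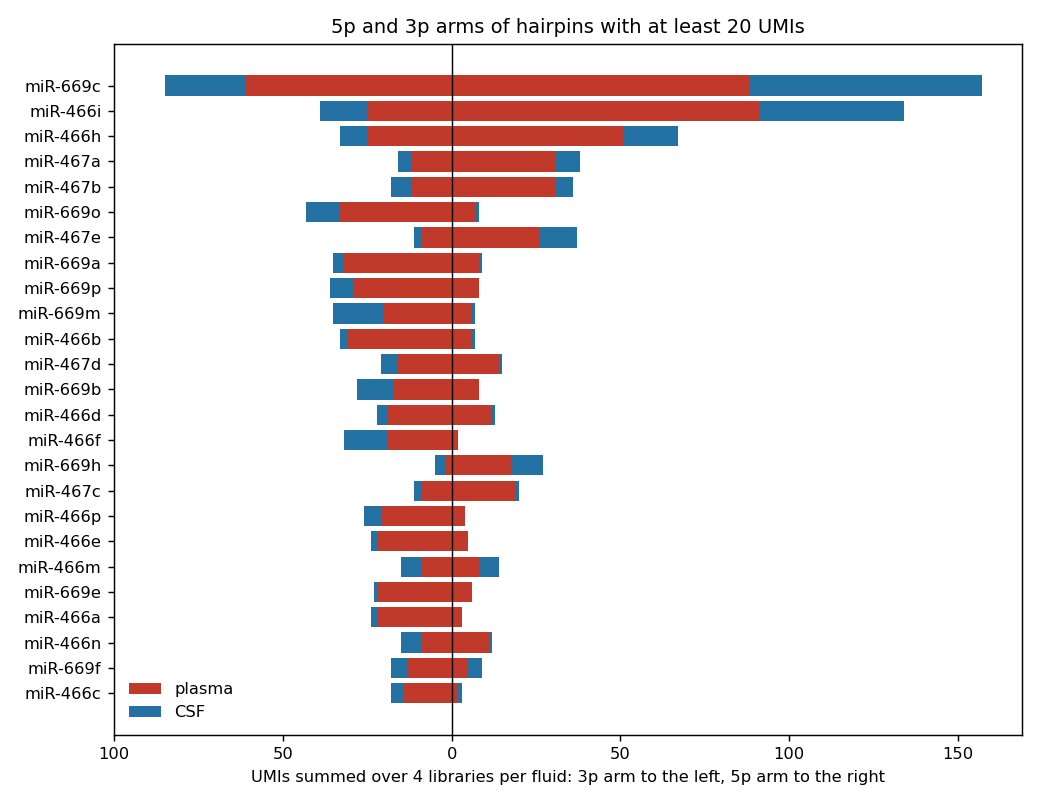
UMIs of the 5p arm (right) and the 3p arm (left) for each hairpin with at least 20 UMIs over both arms, summed over 4 plasma and 4 CSF libraries (colours stacked). The 5p bars of miR-669c and miR-466i reach 157 and 134, while miR-669o, miR-669p and miR-466f lie mostly to the left.

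Rows with near-equal counts were looked for among the 29 members with at least 20 UMIs over the 8 libraries. Rows were called near-equal where the absolute differences, summed over the libraries, came to at most 10% of the summed counts of both. Of 406 pairs 1 met this, miR-466e-3p and miR-467c-5p, with 24 and 20 UMIs and a difference of 9.09%. Their counts were equal in 4 of 8 libraries. These were the DOCA-salt male of plasma, with 5 each, and in CSF both baseline libraries, with 0 each, and the DOCA-salt male, with 1 each. Their exact Poisson intervals, 15.4 to 35.7 and 12.2 to 30.9, overlap widely, as those of most rows of this size do. The next pair, miR-467a-5p and miR-467b-5p, had 38 and 36 UMIs and differed by 10.8%. Rows with identical counts in all libraries of a fluid had at most 7 UMIs in plasma and 3 in CSF, where few combinations of counts are possible. Whether any rows share reads was not tested.

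The comparison of DOCA-salt with baseline in plasma set 2 libraries against 2, with sex as a term. miR-466i-5p was 4.0-fold lower in the DOCA-salt libraries (log2 fold change -2.0 ± 0.50, adjusted p = 0.0428), the 1 member called of 5 that passed the filter. Over all 1398 miRNAs 1.07% were called, and 0.787% were called lower. Only the baseline libraries of miR-466i-5p, at 236 and 44.1 CPM, reached the level that the filter required. Its passing is therefore not separate support for the fall. Without the filter miR-466i-5p stood at -1.97 (edgeR, adjusted p = 0.0236), where 0.708% of all miRNAs were called lower. The size of the fold rested on 1 library. The female pair had 66 and 11 UMIs, a ratio of 0.162 after scaling (exact interval 0.0773 to 0.310), or 236 and 32.6 CPM. The male pair had 7 and 7 UMIs from libraries of unequal depth, or 44.1 and 23.0 CPM. In CPM both baseline libraries lay above both DOCA-salt libraries, with the baseline female far above the other 3. Without the baseline female the value was -0.29. The call was lost with total-count scaling (-2.18), DESeq2's test (-1.81), read counts (-2.18) and the joint fit of both fluids (-1.87). The fold stayed of like size there, and the adjusted p ran from 0.259 to 0.997. Of all miRNAs, 0 were called with total-count scaling, read counts or the joint fit, and 1 with DESeq2's test. The loss is therefore not particular to this member. Leaving out any library leaves 1 in its group, so only the fold is given for these fits. The value was -2.75 without the DOCA-salt female and -1.84 without the DOCA-salt male. Without the baseline male it was -3.02, with the baseline female alone in that group. Reads per UMI of miR-466i-5p in the baseline female were 4.74, beside a median of 4.64 for the other miRNAs there. Its 66 UMIs in that library came from 313 reads.

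The other 4 tested in plasma were not called. They were miR-466h-5p (-0.79 ± 0.52, adjusted p = 0.544), miR-466b-3p (-0.44 ± 0.68, adjusted p = 0.841), miR-669c-5p (-0.41 ± 0.42, adjusted p = 0.715) and miR-669c-3p (-0.08 ± 0.53, adjusted p = 0.964). In miR-669c-3p the pairs went opposite ways, from 19 to 8 UMIs in females and from 7 to 27 in males. miR-466h-3p had 9, 2, 13 and 1 UMIs in plasma, so both baseline libraries lay above both DOCA-salt libraries. It did not pass the count filter. It was called without that filter (-3.21 ± 0.85, adjusted p = 0.0236), where 0.708% of all miRNAs were called lower, and it rests on 25 UMIs. Both baseline libraries were above both DOCA-salt libraries in CPM for 18 of 79 members, where this held for 25.9% of all miRNAs. The opposite held for 5, where it held for 12.1% of all.

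In CSF the same comparison called 0 of the 2 members that passed the filter, where 0.193% of all 1036 miRNAs were called. Both had an unadjusted p under 0.05 by edgeR, and neither did by DESeq2. miR-669c-5p stood at 1.31 ± 0.60 (adjusted p = 0.474). Its male pair had 9 and 43 UMIs, a ratio of 3.55 after scaling (1.71 to 8.27), and its female pair had 6 and 11. Both DOCA-salt libraries were above both baseline libraries in CPM. miR-466i-5p stood at -1.22 ± 0.58 (adjusted p = 0.527), with 9 and 10 UMIs in females and 19 and 5 in males. Both DOCA-salt libraries were above both baseline libraries for 10 of 69 members, where 6.07% of all miRNAs were, and the opposite held for 4, where 13% of all were. Of these 10 members 5 had 2 UMIs in all, 1 in each DOCA-salt library.

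**Figure D5:**
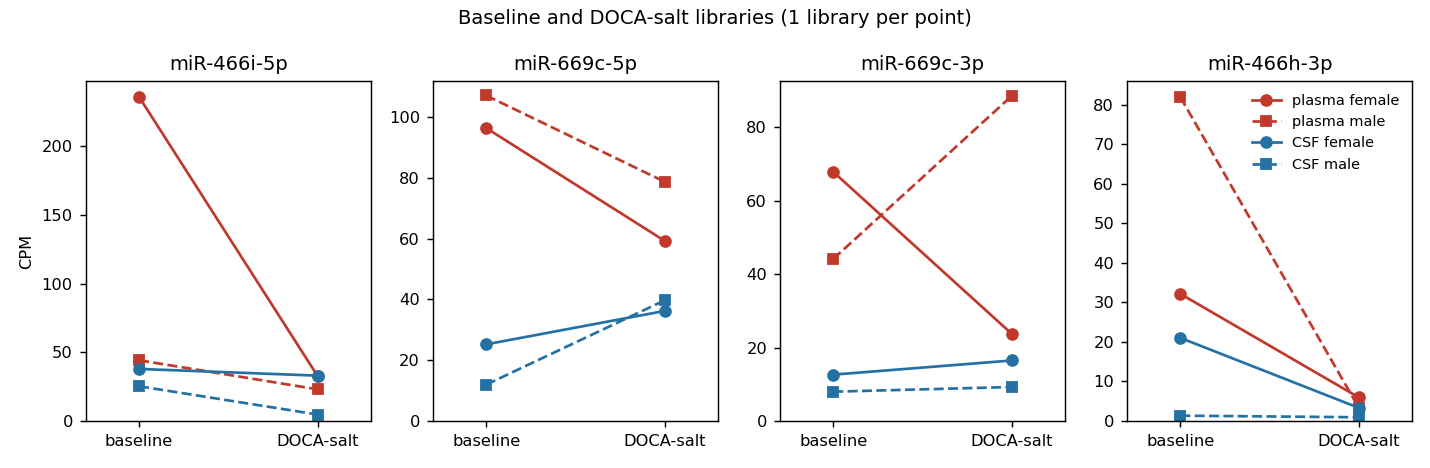
CPM of 4 members in each baseline and DOCA-salt library, joined within fluid and sex (1 library per point). miR-466i-5p stands at 236 and 32.6 CPM in female plasma and at 44.1 and 23.0 CPM in male plasma, while the plasma lines of miR-669c-3p slope in opposite directions in the sexes.

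The DOCA-salt effect was compared between the fluids as an interaction over all 8 libraries. Of 5 members that passed the filter 0 were called, where 0% of all 1465 miRNAs were, and 1 had an unadjusted p under 0.05 by edgeR and 0 by DESeq2. That one was miR-669c-5p, whose effect in CSF minus that in plasma was 1.66 ± 0.75 (adjusted p = 0.631). For miR-466i-5p the difference was 0.68 ± 0.88 (adjusted p = 0.910).

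Males were compared with females within each fluid. In plasma 0 of 5 members were called, where 0.143% of all miRNAs were, with 1 member at an unadjusted p under 0.05 by edgeR and 1 by DESeq2. miR-466i-5p was at -1.96 ± 0.51 (male over female, adjusted p = 0.116), and at -0.53 without the baseline female. It was called without the count filter (-1.99, adjusted p = 0.0352), where 0.253% of all miRNAs were called lower. With DESeq2's size factors it was also called (adjusted p = 0.0394), where 3 of 1398 miRNAs were called lower. miR-669c-3p stood at 0.34 ± 0.53 and miR-669c-5p at -0.07 ± 0.42. In CSF 0 of 2 were called, where 5.21% of all miRNAs were, and none had an unadjusted p under 0.05 by edgeR or DESeq2. miR-669c-5p stood at 0.81 ± 0.60 (adjusted p = 0.557) and miR-466i-5p at -0.38 ± 0.58 (adjusted p = 0.835).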

How the data were processed

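Exosomal RNA of 8 libraries was sequenced after QIAseq miRNA preparation with UMIs, per the labels' protocols. Cutadapt 2.7 trimming is named there, and Bowtie 1.3.0, edgeR and the builds mm10 and GRCm38 in the submitters' processing notes. The deposited UMI and read columns hold counts per miRNA, and the deposited CPM columns hold CPM, UMI counts scaled to the library total, as recomputed here within 0.01 for every member. Both tables list miRNAs with at least 1 UMI in their fluid.

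The members and lists were chosen with earlier results of these data known. UMI counts were tested with R 4.3.3 and edgeR 4.0.16: filterByExpr (minimum count 10, minimum total 15), TMM, quasi-likelihood F-test, Benjamini-Hochberg adjustment over all miRNAs tested. Fits had 6 residual degrees of freedom for fluid, 1 within a fluid and 2 for the interaction, so within a fluid the spread was largely borrowed across miRNAs. Pair ratios used exact conditional binomial intervals. Alternatives were DESeq2 1.42.0 (size factors, Wald test), total-count scaling, no filter, read counts, other models and each library left out. A block per combination of sex and treatment, and the other miRNAs' 5p share without the muscle list, were added after seeing the data. Counts were simulated with 200 changed miRNAs and the same dispersion for every miRNA. A log2 change of 2 was recovered for 97% in the fluid comparison, 75% for DOCA-salt in plasma and 20% in CSF, among miRNAs with a mean of at least 20 UMIs. In plasma only miR-466i-5p and miR-669c-5p reached that mean, and no member did in CSF or over all 8 libraries. The rates therefore do not give the recovery for the family.

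Named members were miR-466i-5p, the 12 highest per fluid, those called (up to 10 per direction), near-equal rows, both arms of hairpins with at least 50 UMIs (up to 12), the 3 largest rises and falls per DOCA-salt pair with at least 50 UMIs, and repeat miRNAs outside the name rule (up to 6). Other hairpins, and members called only under an alternative, were named after their values were seen.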

Additional observations from a re-analysis of the deposited data

Results flagged for a closer look

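Among 30 groups of 4 libraries examined for a library far from the others, 2 were picked out, and chance alone picks out about 1 in 20 groups. In plasma miR-466i-5p stood at 235.8 CPM in the baseline female, far above 22.97 to 44.14 CPM in the other 3 libraries. In plasma miR-467a-5p stood at 56.76 CPM in the baseline male, the shallowest library, against 21.44 to 26.69 CPM in the others. That value rests on 9 UMIs, the same count as in the DOCA-salt female.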

How the results depend on the processing

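The labels give no replicate numbers, and whether plasma and CSF of a combination came from the same mice is not stated. A paired fit of the fluids with the combination of sex and treatment as replicate block was added after seeing the data. It called 1 of 5 members, miR-466b-3p, lower in CSF, where that miRNA had 2 UMIs in all. Of all 1465 miRNAs this fit called 287 lower and 314 higher. It put miR-466i-5p at 0.16 (adjusted p = 0.813) and miR-669c-5p at 0.11 (adjusted p = 0.843). Summing members with one mature sequence was not run, since the 8 sequences at hand all differed. The cause of the changes below was not tested. Depth limits most members, since a single UMI is worth 0.924 to 6.31 CPM.

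Members called between fluids numbered 0, against 2 with total-count scaling, 7 without the filter, 1 with read counts and 1 with sex and treatment as terms. All of these calls were lower in CSF. Of all miRNAs, 64% were called lower with total-count scaling and 16.6% without the filter. In reads 1 of 17 members was called, where 311 of 1724 miRNAs were called lower. With the terms it was 1 of 5, where 299 of 1465 were called lower. For DOCA-salt in plasma the count was 1, against 2 without the filter and 0 with total-count scaling, DESeq2, read counts and the joint fit. Over all miRNAs, 1.07% were called in the main fit and 0.708% were called lower without the filter. With total-count scaling, read counts and the joint fit 0 of all miRNAs were called, and with DESeq2 1 was. With each library left out, miR-466i-5p ran from -3.02 to -0.29. For sex in plasma the count was 0, against 1 with DESeq2's size factors and 1 without the filter. In those settings 3 of 1398 and 5 of 1977 miRNAs were called lower in males. The plasma 5p share was 54.6% in reads, the CSF 5p share 43.4% without miR-466i-5p, and the CSF member share 0.0411% without the muscle list. Near-equal pairs numbered 31 at a tolerance of 20%, 0 at 5%, 0 with at least 100 UMIs and 2 in reads.

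Of 235 values of single members under an alternative, 198 kept their direction and side of the threshold. With the sign kept, 7 lost the call and 3 gained one. Another 27 changed sign, 20 of these with a library left out. None of those 27 was called in the setting reported. After its change of sign, miR-669c-5p between fluids was called with total-count scaling (edgeR, adjusted p = 0.00893). In plasma under DOCA-salt miR-669c-3p changed to 0.47 in reads and 0.014 in the joint fit, and lay between -0.90 and 0.61 with a library left out, as miR-466b-3p did between -0.85 and 0.0045. Between fluids miR-466i-5p changed to 0.16 with sex and treatment as terms and miR-669c-5p to -1.60 with total-count scaling. For sex, miR-669c-5p changed to -0.33 in CSF and 0.29 in plasma with total-count scaling. With each library left out, log2 fold changes between fluids ran from -0.70 to 1.05 for miR-466i-5p and from -0.43 to 0.44 for miR-669c-5p. For sex they ran in CSF from -1.65 to 0.64 for miR-466i-5p and from -0.25 to 1.59 for miR-669c-5p, and in plasma from -0.43 to 1.05 for miR-669c-3p and from -0.31 to 0.13 for miR-669c-5p. Differences of the DOCA-salt effect between fluids ran from -0.16 to 6.84 for miR-466h-5p, from -0.47 to 1.92 for miR-466i-5p and from -0.81 to 1.56 for miR-669c-3p.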
